A study of Mus musculus with 8 samples.

Results

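The genes described here are the 8 mouse genes of the let-7 and Lin28 axis, *Lin28a*, *Lin28b*, *Hmga2*, *Igf2bp1*, *Igf2bp2*, *Igf2bp3*, *Trim71* and *Arid3b*. They were taken by symbol from a table of 24385 gene features, and all 8 were listed and had a mean of at least 1 FPKM (fragments per kilobase of transcript, scaled to the mapped fragments of a library), so that all 8 were among the 10018 genes tested. The study asked what happens to the primitive mouse heart when microRNA (miRNA) processing is removed from cardiovascular progenitors. RNA was sequenced from hearts of C57BL/6 background at embryonic day 8.5 (E8.5) and E9.5, with 2 libraries in each of 4 groups. Controls, labelled wild type (WT), carried floxed alleles, *Dgcr8* loxP/loxP, with *Rosa26* mT/mG/+ and no Cre. Conditional knockout (cKO) embryos were *Mesp1* Cre/+ *Dgcr8* loxP/loxP with *Rosa26* mT/mG/+, given in the labels as Mesp1Cre/+; Dgcr8-/-. Floxed *Dgcr8* alleles and the reporter were therefore shared by both genotypes, and effects of Cre and of the deletion cannot be told apart. Cre was driven by *Mesp1*, a gene of early mesoderm, so heart cells of other origin kept *Dgcr8*. *Dgcr8* encodes the partner of the nuclease Drosha that releases miRNA hairpins from their primary transcripts.

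LIN28A and LIN28B are RNA-binding proteins that bind let-7 precursors and block their maturation. LIN28A also recruits enzymes that add a uridine tail leading to decay. Mature let-7 in turn represses messenger RNAs with matching sites in their 3′ untranslated regions (UTRs), among them *Lin28a* and *Lin28b* themselves, so the arms of the axis oppose each other. In the embryo LIN28 is high early and recedes as let-7 accumulates and tissues differentiate. *Hmga2* (a chromatin architectural protein of growing embryonic cells), *Igf2bp1* to *Igf2bp3* (RNA-binding proteins of the fetus), *Trim71* (a regulator of messenger RNA in early embryos) and *Arid3b* (a DNA-binding protein needed for early development) are textbook let-7 targets.

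The mature let-7 sequences are shown because every member was chosen as a part of this circuit and the seed, bases 2 to 8, is what pairs with a target. RefSeq (GRCm38.p6) held 11 mature 5′-arm or single-arm let-7 and miR-98 sequences of the mouse. The seed is in capitals, and 10 of the 11 shared it.
let-7a-5p: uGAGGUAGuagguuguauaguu
let-7g-5p: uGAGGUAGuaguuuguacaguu
miR-98-5p: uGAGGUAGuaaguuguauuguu
let-7j: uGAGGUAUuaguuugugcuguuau
let-7j alone of the 11 had another seed, GAGGUAU. Of 1679 mature mouse miRNAs in the table, 11 held the seed GAGGUAG.

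The stretch of a let-7 hairpin between its arms is where LIN28 is known to bind, through the letters GGAG, and a few are shown with those letters in capitals. Of 12 let-7 and miR-98 hairpins for which both arms could be placed, 9 (75.0%) held GGAG between the arms, read on the strand of the RNA. Of all 643 mouse hairpins with both arms in the table, 53 (8.24%) did.
let-7a-1: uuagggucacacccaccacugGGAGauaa
let-7e: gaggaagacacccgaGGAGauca
let-7f-2: uuagggucauaccccaucuuGGAGauaa
let-7c-2: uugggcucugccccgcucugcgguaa
The let-7c-2 stretch, like those of let-7b and miR-98, had no GGAG. A match is a description of letters, and binding was not measured here.

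Target sites of the members were searched in the longest 3′ UTR that GENCODE M1 gives each gene on build NCBIM37, on the transcribed strand. The letters searched were CTACCTC, complementary to the shared seed, and the 8-letter form CTACCTCA. All 8 members held at least 1 8-letter match. *Igf2bp1* held 3 of them and 1 further 7-letter match, *Lin28a* and *Trim71* held 2 each, and *Lin28b* and *Hmga2* held 1 each with 3 further 7-letter matches. *Igf2bp2*, *Igf2bp3* and *Arid3b* held 1 match each. Of all 19915 genes with a 3′ UTR, 8.81% held the 7-letter match and 3.02% the 8-letter form. Members were chosen as let-7 targets, so their sites are part of how they were picked. Their UTRs, 1370 to 6337 bases long, were also longer than the median of 893. Among the 3546 tested genes with a UTR in that length range, 16.1% held the 7-letter match. One site of each member is shown, with the match in capitals and its position on NCBIM37, all on the minus strand.
Lin28a, chr4:133561103-133561125: cacagcctgttgaaCTACCTCAt
Lin28b, chr10:45100827-45100849: cccgggcgggaagtCTACCTCAt
Hmga2, chr10:119801279-119801301: ccgacattcaatttCTACCTCAg
Igf2bp1, chr11:95823091-95823113: ctgtgcgaagtaaaCTACCTCAa
Igf2bp2, chr16:22059545-22059567: cacacaaataaaagCTACCTCAg
Igf2bp3, chr6:49036785-49036807: gcatttttactcaaCTACCTCAg
Trim71, chr9:114421589-114421611: acattgcctaagtcCTACCTCAg
Arid3b, chr9:57640370-57640392: ctgctcaccaagtcCTACCTCAt
The sites of *Lin28b* and *Hmga2* shown lay 36 and 58 bases into the UTR, close to the stop codon, and the other 8-letter sites of the members lay further in.

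**Figure D1:**
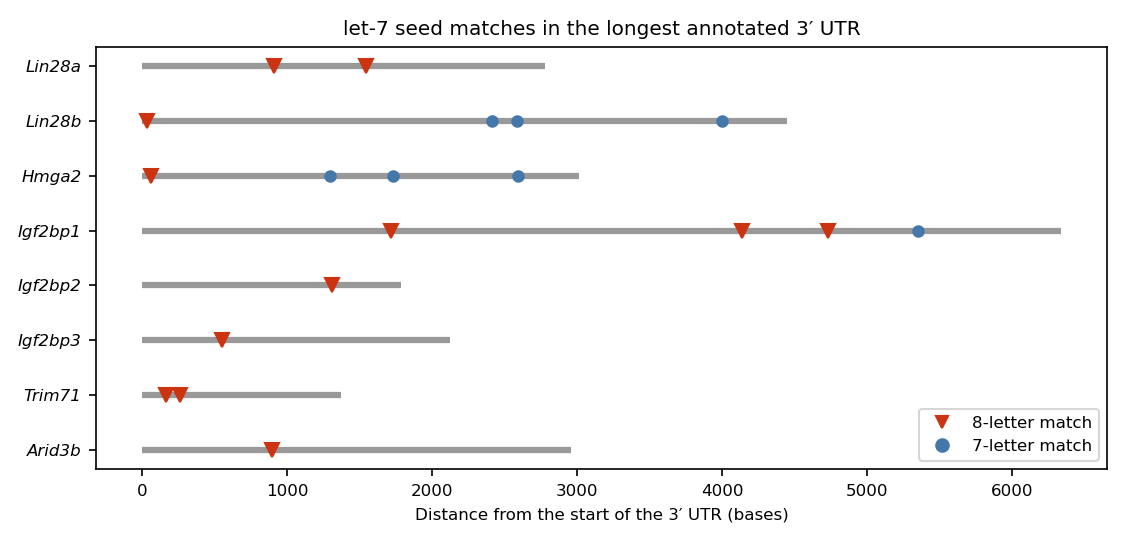
Position of let-7 seed matches along the longest annotated 3′ UTR of each member, in bases from the UTR start. Grey bars are UTRs, triangles are 8-letter matches and circles are 7-letter matches, and every member carries at least 1 triangle.

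The let-7 RNAs themselves could not be followed in these 8 libraries, and miRNA sequencing that the study made of E9.5 WT hearts was not analysed here. The list of most abundant miRNAs that the study printed from that sequencing held no let-7 and no miR-98. All 13 let-7, *Mir98* and *Mir202* genes in the table were listed at 0 FPKM in all 8 libraries, and mature miRNAs are too short for this kind of library. Of their host transcripts *Huwe1* (host of *Mir98* and *Mirlet7f-2*) and *Wdr82* (host of *Mirlet7g*) were listed, as was *Mir99ahg*, whose locus in the table ends before *Mirlet7c-1*. *Huwe1* was called lower at E9.5 in WT hearts, going from 3.51 and 3.95 FPKM to 1.30 and 1.60 FPKM, a log2 change of -0.95 (limma adjusted p = 0.0326). After median-ratio scaling it was not called and stood at -0.21 relative to the median gene. *Wdr82* lay between 3.73 and 9.36 FPKM and was not called in any of the comparisons. *Mir99ahg* was at or under 0.258 FPKM in all 8 libraries and was not tested.

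Before the members, the libraries were examined. Heart muscle markers summed to between 21810 and 67470 FPKM in the 8 libraries, which are labelled heart. The 5 uterine natural killer markers summed to 151 FPKM in E8.5 WT replicate 1, against at most 1.14 in the other 7 libraries. Decidual stroma markers summed to 6787 FPKM and placental trophoblast markers to 291 FPKM in E8.5 cKO replicate 2, against at most 2363 and 62.6 FPKM in the other 7. E8.5 cKO replicate 1 had the highest yolk sac endoderm and primitive erythroid sums of its stage, 6860 and 35490 FPKM, against at most 2619 and 23820 FPKM in the other 3 E8.5 libraries. Features with loci under 300 bp held 38.6%, 50.5% and 54.5% of the summed FPKM in 3 of the 4 cKO libraries, and between 15.7% and 22.4% in the other 5. Relative depth ranged from 1 to 1.45. Absolute depth was unknown, so no counting interval was made. The 2 E8.5 cKO libraries lay 88.5 apart in log2 distance over the tested genes, further than E8.5 cKO replicate 1 lay from either E8.5 WT library (74.0 and 62.3). E9.5 WT replicate 1 lay 59.5 from E9.5 cKO replicate 2 and 61.8 from E9.5 WT replicate 2, while the 2 E9.5 cKO libraries lay 55.2 apart.

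*Dgcr8* (chr16:18253965-18289168, GRCm38) was checked as the targeted gene. It had 7.10 and 8.60 FPKM in E8.5 WT, 1.64 and 4.67 FPKM in E8.5 cKO, 3.49 and 3.23 FPKM in E9.5 WT, with 1.15 and 1.77 FPKM in E9.5 cKO libraries. Within each stage, all cKO values were under all WT values. Neither log2 change passed the threshold, with -1.19 (SE 0.36, limma adjusted p = 0.590) for E8.5 and -0.84 (SE 0.36, adjusted p = 0.317) for E9.5. Reads from parts of the gene outside the deletion still count towards its FPKM.

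The levels of the members were taken as deposited. *Lin28a* (chr4:134003330-134018816) had 48.7 and 71.0 FPKM in E8.5 WT, 24.5 and 34.0 FPKM in E8.5 cKO, 7.45 and 6.61 FPKM in E9.5 WT, with 5.13 and 5.29 FPKM in E9.5 cKO libraries. Its 4 groups were therefore ordered without overlap, E8.5 WT, E8.5 cKO, E9.5 WT and E9.5 cKO from high to low, and the step from E8.5 to E9.5 was the widest. *Lin28b* (chr10:45376619-45470201), the paralog of *Lin28a*, was much lower on this length-corrected scale, with 6.04 and 2.39 FPKM in E8.5 WT, 2.45 and 2.76 FPKM in E8.5 cKO, 0.359 and 1.14 FPKM in E9.5 WT, with 0.608 and 0.431 FPKM in E9.5 cKO libraries. Its stages did not overlap, whereas its genotypes overlapped at both stages.

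Among the effectors, *Hmga2* (chr10:120361275-120476935) had 32.1 and 42.9 FPKM in E8.5 WT, 15.3 and 31.7 FPKM in E8.5 cKO, 11.4 and 7.05 FPKM in E9.5 WT, with 5.78 and 4.32 FPKM in E9.5 cKO libraries. *Trim71* (chr9:114511273-114564369) had 10.96 and 8.06 FPKM in E8.5 WT, 5.203 and 5.47 FPKM in E8.5 cKO, 1.46 and 1.28 FPKM in E9.5 WT, with 1.41 and 1.88 FPKM in E9.5 cKO libraries. *Hmga2* kept the order of *Lin28a*, while the E9.5 genotypes of *Trim71* overlapped. After median-ratio scaling the E8.5 genotypes of *Hmga2* overlapped, with 20.1 and 27.8 in WT against 11.9 and 26.5 in cKO libraries. *Arid3b* (chr9:57790505-57834234), the most abundant member in E8.5 WT hearts, had 83.1 and 88.7 FPKM there, 67.3 and 50.4 FPKM in E8.5 cKO, 19.5 and 27.0 FPKM in E9.5 WT, with 32.1 and 39.5 FPKM in E9.5 cKO libraries. It was the only member whose cKO libraries lay below WT at E8.5 and above WT at E9.5.

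The IGF2BP family, which binds messenger RNAs such as *Igf2*, *Actb* and *Myc*, differed among its members. *Igf2bp1* (chr11:95957164-96005944) had 78.9 and 71.5 FPKM in E8.5 WT, 56.8 and 61.2 FPKM in E8.5 cKO, 65.7 and 63.6 FPKM in E9.5 WT, with 34.3 and 51.1 FPKM in E9.5 cKO libraries. It was the most abundant member at E9.5. *Igf2bp2* (chr16:22059009-22163299) had 20.5 and 18.98 FPKM in E8.5 WT, 18.4 and 23.2 FPKM in E8.5 cKO, 12.2 and 13.5 FPKM in E9.5 WT, with 8.86 and 8.67 FPKM in E9.5 cKO libraries. *Igf2bp3* (chr6:49085218-49214954) had 63.7 and 49.5 FPKM in E8.5 WT, 39.4 and 38.1 FPKM in E8.5 cKO, 19.5 and 29.9 FPKM in E9.5 WT, with 9.37 and 11.1 FPKM in E9.5 cKO libraries. Its groups did not overlap and stood in the same order as those of *Lin28a*. After median-ratio scaling *Igf2bp3* kept that order no longer, with E9.5 WT replicate 2 at 38.5 and the E8.5 cKO libraries at 30.6 and 31.8. In bulk hearts, fewer cells of a type and less RNA per cell cannot be told apart.

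**Figure D2:**
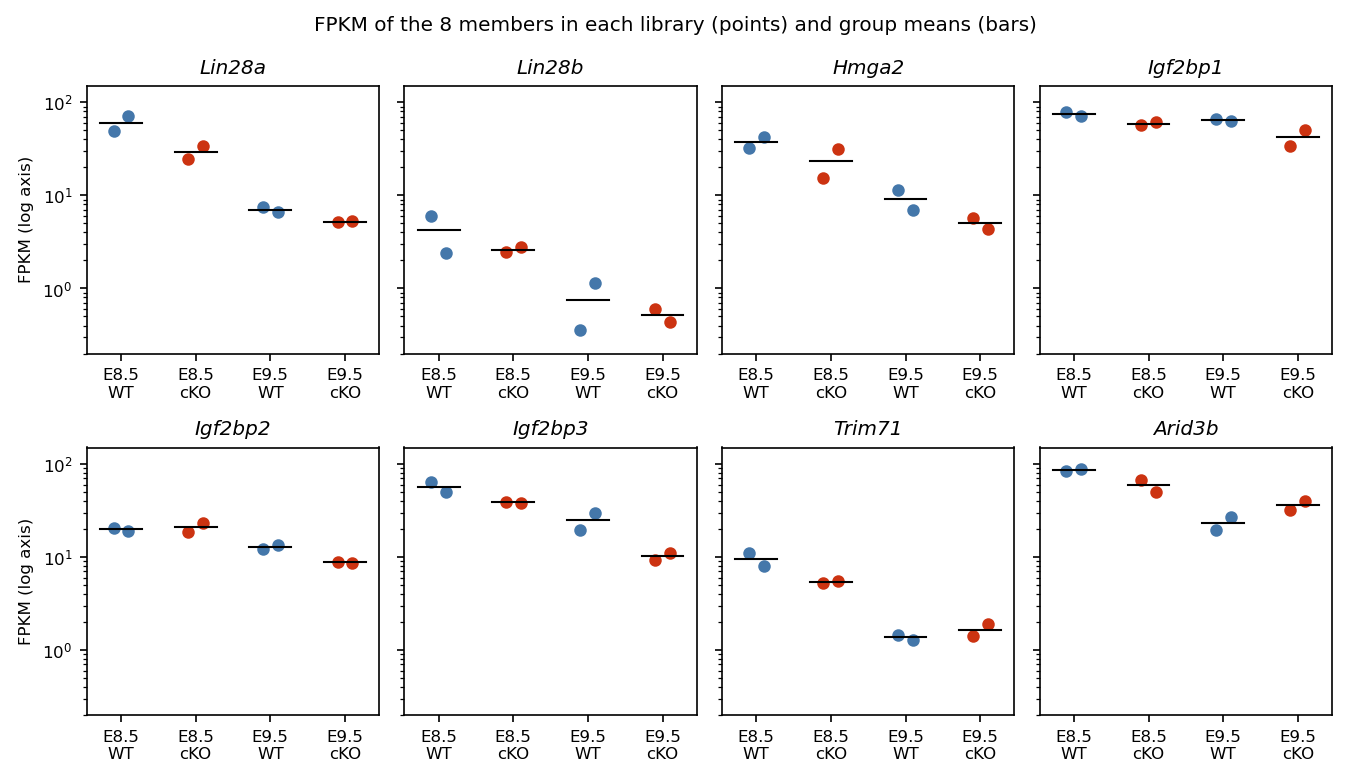
FPKM of the 8 members in each of the 8 libraries on a log axis, by stage and genotype. Points are libraries (blue WT, red cKO) and bars are means of 2 libraries, and *Lin28a* drops from a WT mean of 59.9 to 7.03 FPKM between the stages while *Igf2bp1* moves from 75.2 to 64.7 FPKM.

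The first comparison followed normal heart development over 1 day in WT hearts, with E9.5 set against E8.5. *Lin28a* fell by 2.90 on the log2(FPKM + 1) scale (SE 0.29, limma adjusted p = 0.00517), with means of 59.9 ± 15.8 and 7.03 ± 0.596 FPKM (SD, n = 2), an 8.52-fold lower mean. *Trim71* fell by 2.13 (SE 0.24, adjusted p = 0.00714), from 9.51 ± 2.05 to 1.37 ± 0.124 FPKM. *Hmga2* fell by 1.93 (adjusted p = 0.0139), *Arid3b* by 1.86 (0.0114), *Lin28b* by 1.52 (0.0188) and *Igf2bp3* by 1.18 (0.0185). *Igf2bp2* had a log2 change of -0.59 (adjusted p = 0.0713) and *Igf2bp1* one of -0.21 (0.512), and neither was called. Calls required a 1.5-fold change or more together with a Benjamini-Hochberg adjusted p, taken over all 10018 genes, under 0.05.

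In WT hearts 6 of the 8 members were thus called lower at E9.5 and 0 higher, beside 46.7% of all tested genes called lower and 1.4% called higher. In all 8 members both E9.5 libraries lay below both E8.5 libraries, which 80.1% of all tested genes also did, while 5.43% had both E9.5 libraries above. After median-ratio scaling 5 members lay below, beside 27.9% of all genes, and *Igf2bp1* and *Igf2bp2* lay above, beside 30.3%. A fall was therefore common to most genes on this scale. The median tested gene had a log2 change of -0.84, and FPKM values are relative within a library. Relative to the median gene, *Lin28a* stood at -2.06, *Trim71* at -1.30, *Hmga2* at -1.10, *Arid3b* at -1.02, *Lin28b* at -0.68 and *Igf2bp3* at -0.35, while *Igf2bp2* stood at 0.25 and *Igf2bp1* at 0.62. Only 0.898% of the tested genes had a lower value than *Lin28a*, 2.19% a lower one than *Trim71* and 3.04% a lower one than *Hmga2*, against 85.2% below *Igf2bp1*.

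The calls of the other members depended on the scale. After median-ratio scaling the median gene stood at -0.03 and calls over all genes went from 140 higher and 4683 lower to 293 higher and 65 lower. *Lin28a* then fell by 1.93 (limma adjusted p = 0.0194) and *Trim71* by 1.34 (0.0319), and both were also called after adjustment for transcript GC content, whereas only *Lin28a* of the 8 was called after quantile normalization. Over all genes 309 were called higher and 108 lower of 9122 with GC adjustment, and 88 and 27 of 10018 with quantile normalization. *Lin28a* was called under all 19 alternatives, with log2 changes from -3.17 to -1.93 and adjusted p from 0.00271 to 0.0398. *Igf2bp1* had a log2 change of 0.79 after median-ratio scaling, 0.43 after quantile normalization and 0.55 after GC adjustment, against -0.21 as deposited. Without E8.5 WT replicate 1, the library with natural killer transcripts, 1 member was called (*Lin28a*, which fell by 3.17), and 3 and 2 members were called without E8.5 WT replicate 2 or E9.5 WT replicate 1. All 10018 genes gave 28, 184 and 48 lower calls in those fits. *Lin28b* stood at -0.99 without E8.5 WT replicate 1.

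Markers of other cells were set beside these changes. The 5 pluripotent and epiblast markers summed to between 77.3 and 122 FPKM at E8.5 and between 3.15 and 9.80 FPKM at E9.5, and at E8.5 *Tdgf1*, a Nodal co-receptor also known from early heart, made up most of the sum. *Tdgf1* was between 50.2 and 114 FPKM at E8.5 and between 0 and 6.86 FPKM at E9.5. *Tdgf1* and *Dppa5a* of this list were called lower at E9.5 in both genotypes, *Dppa5a* with log2 changes of -1.46 in WT (limma adjusted p = 0.0120) and -1.03 in cKO hearts (0.0258). *Utf1* went from 2.52 and 3.89 FPKM to 0.0676 and 0.0521 FPKM in WT libraries and was not called. *Nanog* was not called either, with log2 changes of 0.29 in WT (adjusted p = 0.488) and -0.74 in cKO hearts (0.136). The defining gene *Pou5f1* was at most 0.537 FPKM in any library. The 8 neural tube markers summed to between 1.55 and 3.07 FPKM at E8.5 and between 0.962 and 1.52 FPKM at E9.5, with *Zic1* at 0 throughout. Between the same WT stages the 6 yolk sac endoderm markers went from sums of 757 and 2619 FPKM to 6563 and 4966 FPKM, and the 6 heart muscle markers from 21810 and 36930 FPKM to 48150 and 47070 FPKM. The 6 decidual stroma markers went from sums of 1298 and 2363 FPKM to 925 and 1283 FPKM. Of these *Prl8a2*, a decidual prolactin, and *Prl3c1* were called lower, *Des*, which encodes the muscle filament protein desmin, was called higher, and 3 were not called. The part of these lists in the stage change was not tested.

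**Figure D3:**
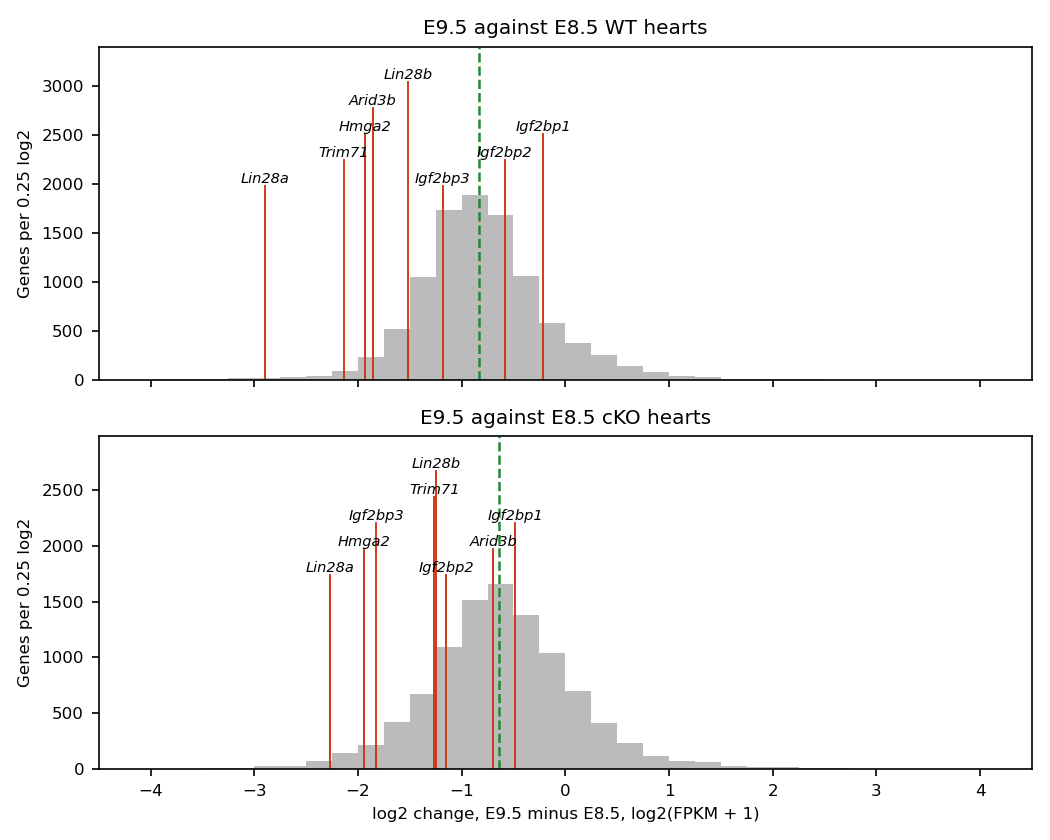
Number of tested genes by log2 stage change (E9.5 against E8.5) in WT (top) and cKO (bottom) hearts, in bins of 0.25, drawn from -4.5 to 4.5. The dashed line is the median gene (-0.84 and -0.64) and red lines are the 8 members, with *Lin28a* leftmost and *Igf2bp1* to the right of the median in both panels.

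The same step was then followed in cKO hearts. *Lin28a* fell by 2.27 on the log2 scale (SE 0.29, limma adjusted p = 0.0148), from 29.3 ± 6.73 to 5.21 ± 0.110 FPKM (SD, n = 2). *Hmga2* fell by 1.94 (adjusted p = 0.0178), *Igf2bp3* by 1.83 (0.0160), *Trim71* by 1.27 (0.0167), *Lin28b* by 1.25 (0.0414) and *Igf2bp2* by 1.15 (0.0179). *Arid3b* had a log2 change of -0.69 (adjusted p = 0.0938) and *Igf2bp1* one of -0.48 (0.190), and neither was called. The members called lower were again 6 of 8, with 0 called higher, beside 28.5% of all genes called lower and 2.05% called higher.

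All 8 members had both E9.5 cKO libraries below both E8.5 cKO libraries, as did 62.7% of all genes, while 7.05% had them above. After median-ratio scaling 6 members lay below, beside 27.5% of all genes, and 0 above, beside 26.8%. The median gene stood at -0.64. Relative to it *Lin28a* stood at -1.63, *Hmga2* at -1.31, *Igf2bp3* at -1.19 and *Arid3b* at -0.06. After median-ratio scaling *Lin28a* alone was called, with a fall of 1.57 (limma adjusted p = 0.0336), and the same was found after quantile normalization and after GC adjustment. Calls over all genes went from 205 higher and 2857 lower to 357 and 74, 258 and 49, and 267 and 98 under these 3 scalings. *Arid3b* had a log2 change of 0.07 and *Igf2bp1* one of 0.28 with median-ratio scaling. No member was called without E9.5 cKO replicate 1 or without E9.5 cKO replicate 2, where 0 and 1 of all genes were called lower, and *Lin28a* had adjusted p of 0.0907 and 0.0613 there. With the replicate number as a block, 5 members were called, *Lin28b* being lost (limma adjusted p = 0.0602), beside 2441 of all genes called lower. The call of *Lin28b* was lost under 9 of 17 alternatives, and its log2 change ran from -2.14 with a pseudocount of 0.1 to -0.038 with GC adjustment. *Igf2bp1* stood at -0.20 without E9.5 cKO replicate 1 and -0.77 without replicate 2.

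**Figure D4:**
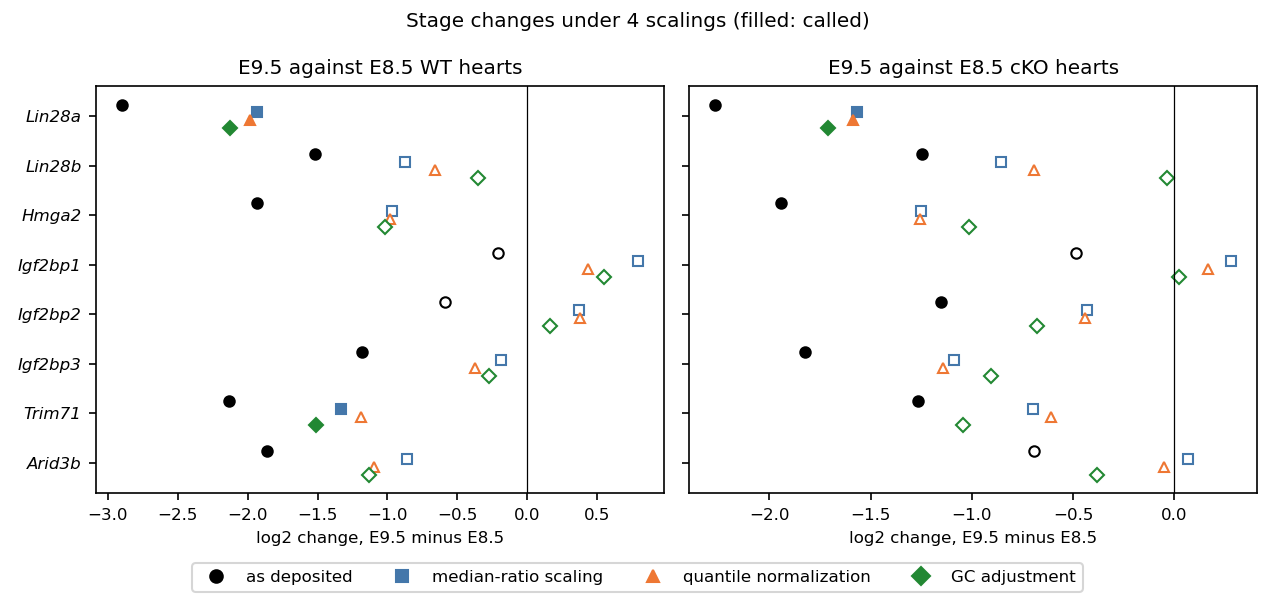
log2 stage change (E9.5 against E8.5) of each member in WT (left) and cKO (right) hearts, as deposited and under 3 other scalings, with filled symbols for called changes. *Lin28a* is filled under all 4 scalings in both genotypes, and *Igf2bp1* lies left of 0 as deposited and right of 0 under the other 3.

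Next, cKO and WT hearts were compared, to ask whether these targets of a miRNA rose when *Dgcr8* was deleted. By quantitative PCR the paper found *Dgcr8* not significantly lower in E8.5 cKO hearts. It proposes that some miRNAs were left at that stage, so loss of let-7 at E8.5 was not established. At E8.5 none of the 8 members was called higher or lower, by limma, beside 0.00998% of all genes called higher and 0% called lower. At an unadjusted p under 0.05, 2 members qualified, *Lin28a* and *Trim71*, and both had lower values in cKO hearts. With the same limit and a 1.5-fold change, 6.9% of all genes were lower and 0.24% higher (691 and 24 genes). After median-ratio scaling these were 88 and 114 genes, and after quantile normalization 117 and 93. *Lin28a* had 24.5 and 34.0 FPKM in cKO against 48.7 and 71.0 FPKM in WT libraries, a log2 change of -1.001 (95% interval -1.66 to -0.34, limma adjusted p = 0.590). *Trim71* had a log2 change of -0.72 (95% interval -1.27 to -0.16, adjusted p = 0.590) and *Hmga2* one of -0.72 (95% interval -1.63 to 0.18, adjusted p = 0.596). The remaining 5 lay between -0.55 for *Arid3b* and 0.06 for *Igf2bp2*.

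In 6 of the 8 members both E8.5 cKO libraries lay below both WT libraries, beside 40.1% of all genes, and in 0 both lay above, beside 2.54%. After median-ratio scaling 3 members lay below (*Lin28a*, *Igf2bp3* and *Trim71*), beside 13.6% of all genes, and 1 lay above (*Igf2bp2*), beside 12.4%. On that scale *Lin28a* stood at -0.66 (SE 0.32), *Trim71* at -0.40 (SE 0.26) and *Arid3b* at -0.22. The median of the members was -0.54 and that of all genes -0.28. Over the 17 alternatives no member was called, and the log2 change of *Lin28a* stayed between -1.27 and -0.66. Without E8.5 cKO replicate 2, the library with the highest decidual and trophoblast sums, *Lin28a* stood at -1.23, *Hmga2* at -1.22 and *Arid3b* at -0.35. Without E8.5 cKO replicate 1, *Hmga2* stood at -0.22, so its value turned on which of the 2 cKO libraries was kept. The part of the yolk sac, erythroid, decidual and trophoblast transcripts of these libraries was not tested. Without E8.5 WT replicate 1, *Lin28b* stood at 0.09, against -0.44 with it, and *Igf2bp3* at -0.35. The share of short features was higher in both E8.5 cKO libraries, and with each library rescaled over longer loci *Lin28a* stood at -1.10.

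At E9.5 again none of the 8 members was called, by limma, beside 0.17% of all genes called higher and 0.00998% called lower. *Igf2bp3* had 9.37 and 11.1 FPKM in cKO against 19.5 and 29.9 FPKM in WT libraries, a log2 change of -1.17 (95% interval -1.84 to -0.50, limma adjusted p = 0.134), and was the only member with an unadjusted p under 0.05. With that limit and a 1.5-fold change, 9.99% of all genes were lower and 5.08% higher. *Igf2bp1* had a log2 change of -0.62 (95% interval -1.25 to 0.02, adjusted p = 0.327), *Igf2bp2* one of -0.50 (-1.05 to 0.05, 0.358) and *Hmga2* one of -0.73 (-1.64 to 0.18, 0.413). *Arid3b* had a log2 change of 0.61 (95% interval -0.05 to 1.27, adjusted p = 0.351), with 32.1 and 39.5 FPKM in cKO against 19.5 and 27.0 FPKM in WT. *Lin28a* stood at -0.37 (95% interval -1.03 to 0.29), *Lin28b* at -0.17 (-1.04 to 0.70) and *Trim71* at 0.15 (-0.40 to 0.71).

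In 5 of the 8 members both E9.5 cKO libraries lay below both WT libraries, beside 31.1% of all genes, and in 1 (*Arid3b*) both lay above, beside 21%. After median-ratio scaling the counts were again 5 and 1, beside 24% and 26.2% of all genes. The summed heart muscle markers differed by genotype here, with WT sums of 48150 and 47070 FPKM against cKO sums of 65190 and 67470 FPKM, mostly *Myl7* and *Actc1*. Of the 6 markers *Myh6* lay the other way without overlap (916 and 777 against 424 and 567 FPKM), *Tnnt2* and *Myh7* overlapped, and 0 were called. Trophoblast sums were higher in cKO too, with 31.3 and 37.2 FPKM in WT against 44.0 and 62.6 FPKM. So were decidual stroma sums, with 925 and 1283 against 1375 and 1334 FPKM. The small natural killer sums were also higher, and the neural tube sums were lower. Sums of endothelium, erythroid, yolk sac endoderm and epiblast markers overlapped. Of the endothelium markers *Pecam1* was higher (11.3 and 12.0 against 21.3 and 29.2 FPKM), *Tek* was lower, and neither was called. The part of these lists in the result was not tested. The median of the members was -0.44 and that of all genes -0.07. Transcript GC content moved with this comparison, with a Spearman rho of 0.405 between GC and log2 change over 9122 genes, which are not independent. The same rho was 0.51 for the stage comparison of cKO hearts, 0.259 for that of WT hearts and 0.352 for the difference of the cKO effect between stages. For cKO against WT hearts at E8.5 it was 0.0658. After GC adjustment *Igf2bp3* stood at -0.84, *Arid3b* at 0.50 and *Hmga2* at -0.40. Without E9.5 WT replicate 1, *Hmga2* stood at -0.42 and *Arid3b* at 0.39, and without E9.5 cKO replicate 1 *Igf2bp1* stood at -0.33. *Trim71* stood at 0.28 without E9.5 cKO replicate 1 and 0.024 without replicate 2. With 2 libraries a group, the smallest two-sided p of an exact permutation test is 0.333, so none was made for single genes.

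**Figure D5:**
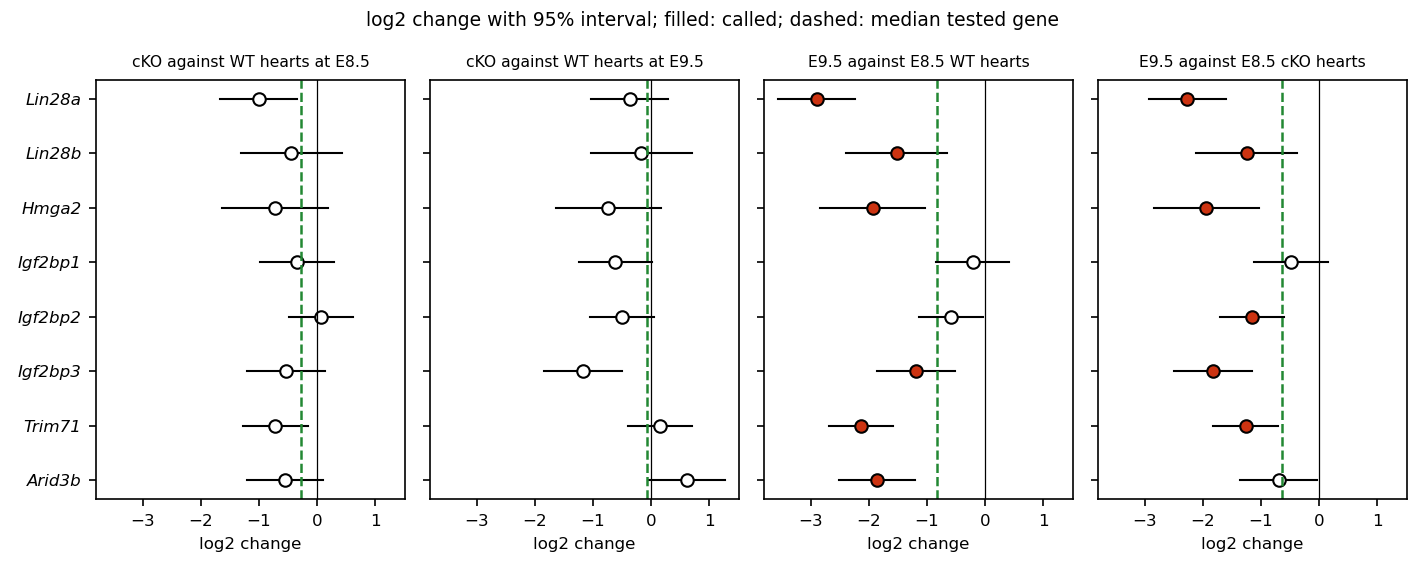
log2 change of each member in 4 comparisons with its 95% interval from limma. Filled points passed the threshold and the dashed line is the median tested gene; 6 points are filled in each stage comparison and 0 in each comparison of genotypes.

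The cKO effects at the 2 stages were compared as an interaction. None of the 8 members was called, by limma, beside 0.0299% of all genes called higher and 0.00998% called lower. *Arid3b* had a difference of 1.16 (SE 0.40, limma adjusted p = 0.681) and *Trim71* one of 0.87 (SE 0.34, adjusted p = 0.692), and these were the 2 members with an unadjusted p under 0.05. With that limit and a 1.5-fold change, 5.69% of all genes were higher and 1.49% lower (570 and 149 genes), against 343 and 262 genes after median-ratio scaling and 365 and 360 of 9122 after GC adjustment. *Igf2bp3* had a difference of -0.64 and *Igf2bp2* one of -0.57, the lowest of the 8. Without E9.5 WT replicate 2 *Igf2bp3* stood at -0.35, and without E9.5 WT replicate 1 at -0.94. The median gene stood at 0.18.

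Other published let-7 targets were set beside the members, from a list of 33 genes of which 30 were tested. Of these 30, 70.0% held the 7-letter match in the longest 3′ UTR and 46.7% the 8-letter form. Over all tested genes with a 3′ UTR these were 9.77% and 3.35%. In cKO against WT hearts 0 of the 30 were called at either stage, with medians of -0.17 at E8.5 and -0.19 at E9.5 (all genes -0.28 and -0.07). Between E8.5 and E9.5 in WT hearts 16 were called lower, 2 higher and 12 were not called, beside 46.7% of all genes called lower and 1.4% higher, with a median of -0.83 against -0.84 for all genes. In cKO hearts 17 were called lower, 1 higher and 12 were not called, beside 28.5% and 2.05% of all genes, with a median of -0.96 against -0.64. After median-ratio scaling 2 were called lower and 3 higher in WT (65 and 293 over all genes), and 0 and 1 in cKO hearts (74 and 357).

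*Prtg*, which encodes the cell surface protein protogenin, went from 61.0 and 29.3 FPKM to 1.09 and 2.34 FPKM in the WT libraries, and fell by 4.04 on the log2 scale (limma adjusted p = 0.00517). In cKO hearts it fell by 2.34 (adjusted p = 0.0160), to 6.56 and 4.72 FPKM, and its log2 change in cKO against WT hearts at E9.5 was 1.32 (adjusted p = 0.178). *Nr6a1*, an orphan nuclear receptor of the early embryo, fell by 2.20 in WT (adjusted p = 0.00884) and 1.54 in cKO hearts (0.0161). Both genes were called lower in WT hearts after median-ratio scaling too, and *Prtg* but not *Nr6a1* after quantile normalization, while neither was called in cKO hearts under these scalings. *Nras*, a RAS family GTPase, fell by 1.70 in WT (adjusted p = 0.0126) and 1.72 in cKO hearts (0.0162), but was not called after median-ratio scaling. *Rrm2*, the small subunit of ribonucleotide reductase, fell by 2.61 in cKO hearts (adjusted p = 0.0233), its libraries going from 142 and 525 FPKM to 30.5 and 63.2 FPKM. *Thbs1*, a secreted matrix protein, rose by 1.48 in WT (adjusted p = 0.0126) and by 1.90 in cKO hearts (0.0160) and was called higher after median-ratio scaling as well. *Ccnd2*, a cyclin of the G1 phase, rose by 1.52 in WT hearts (adjusted p = 0.0279), its libraries going from 53.1 and 29.8 FPKM to 82.3 and 164 FPKM, and had a log2 change of 0.08 in cKO hearts.

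Genes that make or destroy let-7 were described in the same way. Of 14 listed, 13 were tested and 0 were called in cKO against WT hearts at either stage. From E8.5 to E9.5, 6 were called lower in WT hearts and 3 in cKO hearts, beside 46.7% and 28.5% of all genes. Their medians were -0.76 and -0.59 (all genes -0.84 and -0.64), and after median-ratio scaling 0 were called in either genotype. *Drosha*, the nuclease of the microprocessor, fell by 0.76 in WT (limma adjusted p = 0.0285) and 0.95 in cKO hearts (0.0233). *Dicer1*, which cuts the let-7 hairpin in the cytoplasm, fell by 0.94 in WT (adjusted p = 0.0185) and 0.81 in cKO hearts (0.0358). *Dis3l2*, the exonuclease that degrades uridylated let-7 precursors, fell by 0.88 in WT hearts (adjusted p = 0.0355), *Khsrp*, which promotes let-7 processing, by 1.11 (0.0287) and *Dgcr8* by 1.02 (0.0492). *Syncrip*, an RNA-binding protein, fell by 1.89 in cKO hearts (adjusted p = 0.0233), its libraries going from 16.1 and 24.1 FPKM to 5.91 and 3.53 FPKM.

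RNAs linked to the members by binding were a list of 6, of which 4 were tested, with *Sox2* and *Pou5f1* under the filter. In cKO against WT hearts 0 of the 4 were called at either stage, with medians of 0.45 and 0.25 (all genes -0.28 and -0.07). From E8.5 to E9.5, 1 was called higher and 1 lower in WT hearts (all genes 1.4% and 46.7%) and 2 were called higher in cKO hearts (2.05%), with medians of 0.29 and 0.38 (all genes -0.84 and -0.64). After median-ratio scaling 2 were called higher and 0 lower in each genotype. *Igf2*, an insulin-like growth factor whose messenger RNA is bound by the IGF2BP proteins, went from 133 and 177 FPKM to 795 and 589 FPKM in the WT libraries, and rose by 2.15 (limma adjusted p = 0.0109). In cKO hearts it rose by 1.051 (adjusted p = 0.0407), a call lost after quantile normalization (0.0829) and after GC adjustment (0.0785). *Actb*, the cytoplasmic actin, rose by 1.004 in cKO hearts (adjusted p = 0.0244), a call lost after quantile normalization. *Cd44*, a hyaluronan receptor, fell by 1.49 in WT hearts (adjusted p = 0.0137), a call lost under all 3 other scalings.

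The 9050 tested genes with an annotated 3′ UTR, of 10018 tested, were also grouped by the let-7 letters in it, members included. In cKO against WT hearts at E9.5 the median log2 change was -0.07 for 8166 genes with no 7-letter match, -0.06 for 780 genes with 1 and 0.03 for 104 genes with 2 or more. At E8.5 the medians were -0.28, -0.27 and -0.29. Between E8.5 and E9.5 in WT hearts they were -0.83, -0.85 and -0.91. These are descriptions with no test, and the median UTR was 941 bases long for genes with no match, 1848 with 1 and 3187 with 2 or more.

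Finally, the genes whose pattern over the 8 libraries was most like that of 4 members were listed, by Pearson's r of log2(FPKM + 1) after median-ratio scaling. The 8 points share stages and genotypes, so r is given only as a description. For *Lin28a* these were *Tmem251* (r = 0.984), *Klk1* (0.978) and *4833419F23Rik* (0.977). *Klk1*, a kallikrein protease, had 37.5 and 51.3 FPKM in E8.5 WT, 10.2 and 9.81 FPKM in E8.5 cKO and at most 0.385 FPKM in any E9.5 library. For *Lin28b* they were *Lgr4* (0.986), *Phf20* (0.972) and *Arl14ep* (0.971), and for *Hmga2* *Ccny* (0.970), *Hnrnpab* (0.966) and *Lmo2* (0.949). For *Igf2bp1* they were *Cnn3* (0.988), *Gpc3* (0.987) and *Hmgn1* (0.987), and all 3 had their lowest value in E9.5 cKO replicate 1, as did *Igf2bp1*.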

How the data were processed

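RNA of 8 heart libraries was reverse transcribed and amplified by Smart-seq2, read by Illumina sequencing and aligned to mm9 (BWA), per the study's methods and processing notes. The deposited values are FPKM that the authors calculated per library. The program used was not given in the sources used here. Positions in the table matched GRCm38 (91.7% of 9515 genes within 1000 bp of the RefSeq start) and are printed on that build, counted from 1. UTR sites were found on NCBIM37 with its own annotation and are printed on that build. Coordinates were not converted.

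The table had 24930 entries in 8 columns of per-sample values, with 0 left out. For 285 repeated symbols only the entry highest on average was used. Genes averaging 1 FPKM or more were tested as log2(FPKM + 1), which understates changes of low genes. The 4 groups were fitted together by limma (version 3.58.1, R 4.3.3) with a mean-variance trend. Tests were two-sided, adjusted by Benjamini-Hochberg over 10018 genes and tested on simulated data. Depth was read as a ratio from genes under 0.3 FPKM. FPKM holds no counts, so no count test was run. The labels call the libraries replicates and the study's methods call them biological. Groups and replicate numbers came from the labels.

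The members and gene lists were chosen with earlier results of these data known. Named genes were the 8 members, *Dgcr8*, up to 6 called genes of each list by size of change (with fewer than 3 called, the most abundant up to 3), and the 3 genes most like each of 4 members. *Tdgf1*, *Nanog*, *Dppa5a*, *Utf1*, *Prl8a2*, *Prl3c1*, *Des*, *Myl7*, *Actc1*, *Myh6*, *Tnnt2*, *Myh7*, *Pou5f1*, *Sox2* and *Zic1* were named after their values were seen. So were *Pecam1* and *Tek*. Alternatives were a pseudocount of 0.1, no filter, median-ratio scaling, quantile normalization, rescaling over loci of at least 300 bp, only the 4 libraries compared, a replicate block, no trend and leaving out each library. GC adjustment and 2 further blocks were added after seeing the data. Same-numbered libraries did not deviate together (correlations of -0.116 to 0.195 over genes between groups), so the numbers were not taken as pairs.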

Additional observations from a re-analysis of the deposited data

Results flagged for a closer look

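*Arid3b* was singled out because both cKO libraries lay below both WT libraries at E8.5 (67.3 and 50.4 against 83.1 and 88.7 FPKM) and above both at E9.5 (32.1 and 39.5 against 19.5 and 27.0 FPKM). The cKO effect at E9.5 minus that at E8.5 was 1.16 on the log2 scale (SE 0.40), with a limma adjusted p of 0.681 for the interaction, so the difference did not pass the threshold. Over 16 alternatives it stayed between 0.75 and 1.39, with adjusted p from 0.112 to 0.998. The order at E8.5 depended on the scaling. After median-ratio scaling E8.5 cKO replicate 1 lay at 52.4 and E8.5 WT replicate 1 at 52.0, so that the genotypes overlapped, and the E8.5 change was -0.22 instead of -0.55.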

How the results depend on the processing

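Of the counts of called members under the alternatives, 145 stayed within 1.5 times their main value and 11 did not. Members called lower from E8.5 to E9.5 went from 6 to 2 with median-ratio scaling, 1 with quantile normalization and 2 with GC adjustment in WT hearts, and from 6 to 1 under each of these in cKO hearts. Leaving out 1 library gave 1 to 7 in WT and 0 to 6 in cKO hearts, in part because fewer libraries remained. In cKO hearts 5 were called with no filter (1098 of all 19580 genes lower) and with only the 4 libraries compared (1393 of 10018), and in WT hearts 6 (3273) and 7 (5440). The replicate block gave 6 in WT and 5 in cKO hearts (4523 and 2441 of all genes lower) and changed no other call beside that of *Lin28b*. With only the 4 WT libraries the block gave 5 (3736 of all 10018 genes lower) and the crossed block 6 (6031). Changes of single members kept direction and side of the threshold in 600 cases, lost the call in 58, gained it in 4 and changed sign in 26, and the cause was not tested.

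The sign changes were as follows, in log2. With median-ratio scaling, quantile normalization and GC adjustment, *Igf2bp1* stood at 0.793, 0.432 and 0.547 and *Igf2bp2* at 0.374, 0.379 and 0.166 in the WT stage comparison, and *Igf2bp1* at 0.281, 0.164 and 0.0232 in that of cKO hearts, where *Arid3b* stood at 0.0687 with median-ratio scaling. In cKO against WT hearts *Igf2bp2* stood at -0.0287 at E8.5 with rescaling over longer loci, and at E9.5 *Lin28b* stood at 0.116 and *Trim71* at -0.0154 with GC adjustment. In the interaction *Hmga2* stood at 0.0944 with rescaling and 0.00752 with GC adjustment, and *Lin28b* at -0.0339 with quantile normalization. Leaving out 1 library gave ranges across 0 at E8.5 for *Lin28b* (-0.969 to 0.0873, the latter without E8.5 WT replicate 1) and *Igf2bp2* (-0.0934 to 0.2202, the former without E8.5 cKO replicate 2), and at E9.5 for *Lin28b* (-0.494 to 0.159, the latter without E9.5 WT replicate 2). In the interaction such ranges were -0.255 to 0.801 for *Lin28b*, -0.511 to 0.492 for *Hmga2* and -0.552 to 0.0112 for *Igf2bp1*. *Lin28b* was under 1.2 FPKM in every E9.5 library.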
